A study of Mus musculus with 24 samples.

Results

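The genes described here encode enzymes and a carrier of mitochondrial fatty acid oxidation and the isoform Cpt1c, best known from the endoplasmic reticulum of neurons. They were chosen by symbol: Cpt1a, Cpt1c, Cpt2, Slc25a20, Acadvl, Acadl, Acadm, Acads, Hadha and Hadhb, which are 10 of the 41710 genes in each of 2 expression tables from mouse embryonic fibroblasts (MEFs). All 10 passed the filter on low values in both tables, where 13101 genes were tested in primary cells and 12880 in immortalized cells. The MEFs carried floxed alleles of Myc, of Mlx or of both, together with a Cre recombinase fused to the estrogen receptor under the ubiquitous ROSA26 promoter. Excision with 500 nM 4-hydroxytamoxifen (4OHT), for 7 days in primary and 10 days in immortalized cells, gave MycKO, MlxKO and double-knockout (DKO) cells, and cells with intact loci are called wild type (WT). Primary cells were sequenced around day 10. Immortalized cells had first received the SV40 T-antigen by lentivirus with blasticidin selection, and their WT controls were kept free of 4OHT. Each genotype came from a pool of embryos, and WT controls were mostly taken from a single line. The 3 libraries of a group are triplicate RNAs, which the paper calls biological replicates for the primary cells. P-values measure the spread between these samples of a pool, which may still be technical.

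Long-chain fatty acids are first joined to coenzyme A and then to carnitine. Carnitine palmitoyltransferase 1 makes the acylcarnitine at the outer mitochondrial membrane, the carrier encoded by Slc25a20 moves it across the inner membrane, and Cpt2 restores the acyl-CoA in the matrix. Acyl-CoA dehydrogenases matched to chain length then open each round of β-oxidation, and the trifunctional protein built from Hadha and Hadhb completes the round for long chains. Myc is a transcription factor that drives growth and biosynthesis through E-box DNA elements, and Mlx is the partner of MondoA and ChREBP, related factors that respond to nutrients. The comparisons ask how loss of either factor, or of both, alters these genes, and whether the effect of Mlx loss depends on Myc.

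The labels were checked on the targeted genes. In primary cells Myc averaged 93.9 ± 5.46 CPM (SD, n = 3) in WT and 26.5 ± 0.563 in MycKO, and Mlx averaged 23.7 ± 2.84 in WT and 13.5 ± 0.480 in MlxKO. In the DKO, Myc was 21.5 ± 1.47 and Mlx 11.2 ± 1.25 CPM. In immortalized DKO cells Myc was at 8.02, 5.77 and 4.25 CPM, and Mlx at 14.5, 18.04 and 17.7 CPM against 25.1, 23.5 and 20.51 in WT. Reads of these genes cover exons outside the deleted parts as well. CPM, the deposited unit, scales the reads of a gene to those of its library, and libraries held 15986856 to 20966163 reads on genes, so that 3 reads corresponded to 0.145 to 0.196 CPM. This floor covers counting error only, and every gene of the set was far above it.

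A WT library of the immortalized cells stood apart. Libraries are numbered here within each group by the order of the numbers in the column names, which can differ from these. WT library 3 of the immortalized cells is the WT column with the highest number. WT libraries 1 and 2 had a Pearson's r of 0.992 over the log2(CPM + 1) of all genes tested, which are no independent replicates, and library 3 reached 0.943 to 0.950 with them. Libraries 1 and 2 were closer to the DKO libraries, at 0.965 to 0.976. Myc was at 177 CPM in WT library 3 and at 48.1 and 39.9 CPM in the other WT libraries. Among the genes of this set it held the lowest WT value for Cpt1a, Cpt1c, Acadvl, Acadl and Acadm. Results in immortalized cells that changed without it are therefore given both ways. Primary groups had r of 0.990 to 0.996 within a group.

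All 10 fibroblast markers were detected in every group. In primary cells they summed to 42750 to 46400 CPM in WT, 43840 to 48370 in MlxKO, 55210 to 57560 in MycKO and 57730 to 58690 in DKO. Of the 10, 8 were higher and 1 lower than WT in primary MycKO, and likewise in primary DKO. In immortalized cells the sums were 25580 to 33710 CPM in WT, 18480 to 22710 in MlxKO, 18010 to 24220 in MycKO and 26720 to 34570 in DKO. Hepatocyte markers summed to at most 0.264 CPM. The 11 adipocyte markers summed to 10.6 to 17.6 CPM in primary cells, with Cidec, Lep and Cidea at 0 in every group of both tables. In immortalized cells they summed to 38.8 to 51.7 CPM in WT, 25.25 to 26.3 in MlxKO, 15.1 to 17.7 in MycKO and 35.0 to 44.1 in DKO. The summed 10 macrophage markers were 173 to 340 CPM in primary WT, 184 to 220 in MlxKO, 26.4 to 36.6 in MycKO and 51.5 to 113 in DKO cells, whereas in immortalized cells they were at most 5.80 CPM. In immortalized cells only 1 of the 10 skeletal muscle markers passed the filter on low values, and Myod1, Myog and Myf5 were at 0. The sum of the 10 was 13.4 to 23.6 CPM in immortalized WT, 10.6 to 12.5 in MlxKO, 191 to 232 in MycKO and 86.1 to 92.8 in DKO cells. In primary cells it was 124 to 139 CPM in WT, 65.7 to 73.0 in MlxKO, 81.8 to 84.9 in MycKO and 120 to 131 in DKO. The part of these cells in the results below was not tested, and in bulk RNA fewer cells of a type and less RNA per cell cannot be told apart.

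To compare levels between genes, CPM was divided by the mean transcript length of each gene. In primary WT cells Hadha was the most abundant at 35.6 ± 2.30 CPM per kb (SD, n = 3), followed by Hadhb at 31.6 ± 1.25, Acadvl at 27.4 ± 1.65 and Acadl at 24.9 ± 1.24. The carrier Slc25a20 was the least abundant at 11.3 ± 0.493 CPM per kb. Cpt1c at 18.2 ± 0.706, Acads at 17.6 ± 0.780, Acadm at 16.0 ± 1.36, Cpt1a at 15.7 ± 0.325 and Cpt2 at 15.4 ± 1.65 CPM per kb lay between, and neighbours in that order differed by little against their SD. In immortalized WT cells Hadhb led at 46.2 ± 6.04, ahead of Acadl at 42.0 ± 8.95 and Hadha at 36.3 ± 2.28 CPM per kb. The rank of Hadhb rests on the length used, since its longest annotated transcript of 7.38 kb against a mean of 2.10 kb would place it ninth among the 10 in primary WT.

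In primary cells the set leaned upward when Myc was lost. MycKO cells had 5 of the 10 genes higher than WT (Cpt1a, Cpt1c, Slc25a20, Acadvl and Acadl) and 1 lower (Acads), where 20.4% of all genes tested were higher and 21.9% lower (limma on log2(CPM + 1), Benjamini-Hochberg adjusted p under 0.05). DKO cells had 6 higher, the same 5 genes with Cpt2, and none lower, against 24% and 25.5% of all genes. Under library-total scaling 4 were called higher in DKO (Cpt1a, Cpt1c, Cpt2 and Acadl) and 2 lower (Acads and Hadhb). MlxKO cells had none higher and only Cpt1a lower, against 3.75% and 5.14%. Over the 10 genes the median log2 difference was 0.14 for MycKO cells, 0.05 for MlxKO cells and 0.29 for DKO cells, and that of all genes was within 0.0023 of 0. These comparisons share their WT libraries.

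Directly against MycKO, DKO cells had Cpt1a and Cpt2 higher and none of the 10 lower, where 10.6% of all genes were higher and 11% lower. Cpt1a alone passed the test of the Myc-by-Mlx interaction, the effect of Mlx loss without Myc minus its effect with Myc, which 13.5% of all genes passed. The 5 rises in MycKO were small, between 0.18 and 0.39 on the log2 scale. The count of 6 fell to 3 when only the MycKO and WT libraries were fitted, to 3 without WT library 1 or MycKO library 1, and to 2 without MycKO library 3. Under library-total scaling 3 genes were called, and the rises of Cpt1c, Slc25a20 and Acadl no longer passed.

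In immortalized cells the calls with loss of Myc were downward. MycKO cells had 5 of the 10 lower than WT (Cpt2, Acadm, Acads, Hadha and Hadhb) and none higher, where 23.5% of all genes were lower and 24.4% higher. MlxKO cells had 3 higher (Cpt1c, Slc25a20 and Acadvl) and 3 lower (Cpt2, Acadl and Hadhb), against 19.1% and 19.9%. DKO cells had 3 lower (Cpt2, Acads and Hadhb) and none higher, against 8.51% and 10.4%. The median log2 difference of the 10 genes was -0.17, -0.0039 and -0.11 in MycKO, MlxKO and DKO.

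Hadhb was higher in DKO than in MycKO cells and no gene of the set was lower, where 14.8% of all genes were higher and 14.6% lower. The interaction was past the threshold for 5 of the 10 (Cpt1c, Cpt2, Slc25a20, Acadm and Hadhb), close to the 47.4% of all genes. Without WT library 3 the MycKO count stayed at 5 but held Cpt1a in place of Hadha, the MlxKO cells had 2 higher and 4 lower, and the DKO cells 3 lower, with Acadm in place of Hadhb. Without it 3 genes were higher in DKO than in MycKO, where 2629 of 12855 genes were higher and 2632 lower. The interaction without WT library 3 was called for 6 of the 10, close to the 56.7% of all genes. Of all genes tested without that library, 26.7% were lower in MycKO, 23.1% higher and 23.8% lower in MlxKO, and 10.1% lower in DKO. The DKO count went to 0 when only the DKO and WT libraries were fitted, and to 0 without WT library 1. Each of the DKO libraries left out gave a DKO count of 1.

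**Figure D1:**
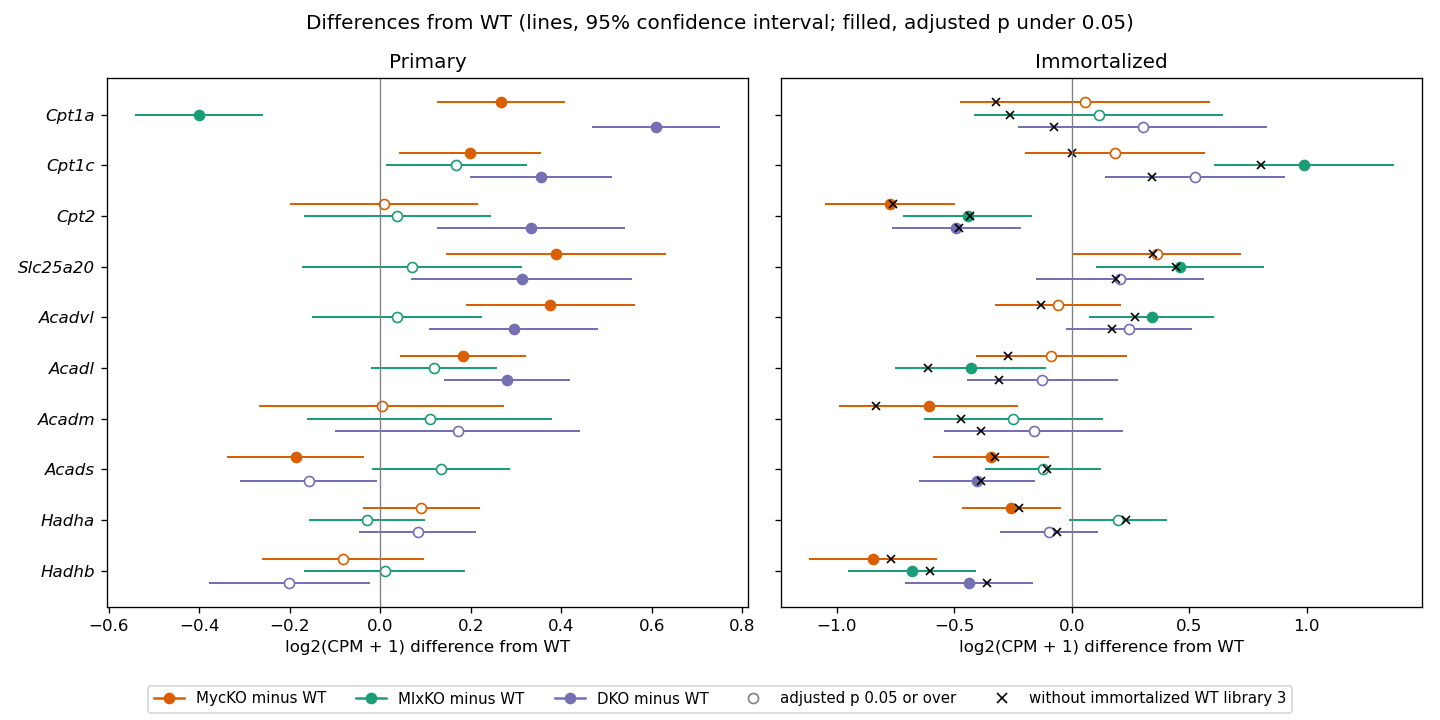
Log2(CPM + 1) differences from WT for each gene in primary (left) and immortalized (right) MEFs, with MycKO in orange, MlxKO in green and DKO in violet. Points are limma estimates with 95% confidence intervals, filled where the adjusted p is under 0.05, and crosses are estimates without immortalized WT library 3. In primary cells most filled points lie to the right of 0, led by Cpt1a in DKO at 0.61, and in immortalized cells Cpt2 and Hadhb lie to the left of 0 in all 3 knockouts.

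Cpt1a (chromosome 19, 3371853 to 3437996, GRCm39, plus strand) encodes the malonyl-CoA-sensitive carnitine palmitoyltransferase that most tissues use to admit long chains to mitochondria. In primary cells its CPM was 75.6, 78.1 and 78.5 in WT, 64.8, 54.7 and 56.1 in MlxKO, 93.3, 94.0 and 92.7 in MycKO, and 119.7, 119 and 118 in DKO. No library of any genotype overlapped with a library of another. The level was lower than WT by 0.40 ± 0.066 (log2, SE) in MlxKO, with a limma adjusted p of 0.00115. It was higher by 0.27 ± 0.066 in MycKO (limma adjusted p = 0.00363) and by 0.61 ± 0.066 in DKO (limma adjusted p = 1.23e-06). Loss of Mlx thus went with a lower level where Myc was present and with a higher level, by 0.34 over MycKO (limma adjusted p = 0.0011), where Myc was absent. The interaction was 0.74 ± 0.093 (limma adjusted p = 3.35e-05), and it passed without each library in turn.

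Immortalized Cpt1a was read differently by the WT libraries. WT libraries held 107, 112 and 49.3 CPM, MlxKO 97.6, 90.5 and 85.1, MycKO 75.3, 98.2 and 90.0, and DKO 105.6, 110.4 and 95.6 CPM. All knockout libraries lay between the low WT library 3 and the highest WT library. No knockout differed from WT by a test with all libraries, with a 95% interval of -0.47 to 0.58 for MycKO. Without WT library 3 MycKO was lower by 0.32 ± 0.12 (limma adjusted p = 0.036), and the interaction was 0.51 ± 0.16 (limma adjusted p = 0.0157). The MycKO difference was 0.056 with all libraries, -0.029 without MycKO library 2, -0.012 in edgeR and -0.019 in DESeq2, so its direction was not settled by these libraries.

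Cpt1c (chromosome 7, 44607765 to 44624306, minus strand) encodes the isoform best known from neurons, where it resides in the endoplasmic reticulum and shows little transferase activity. Its primary CPM was 50.6, 49.9 and 47.0 in WT, 54.2, 56.6 and 55.3 in MlxKO, 60.9, 51.5 and 57.4 in MycKO and 59.7, 66.7 and 63.2 in DKO. WT was lowest and overlapped with no other group. The rise was 0.36 ± 0.073 in DKO (limma adjusted p = 0.000696) and 0.20 ± 0.073 in MycKO (limma adjusted p = 0.0379), and the MlxKO value of 0.17 did not pass (limma adjusted p = 0.165). The MycKO call was lost in 6 of 12 fits that left out a library, with only the groups compared, under library-total scaling, at 0.10, and after correction for GC content and length, at 0.08. The MlxKO value passed after that correction, at 0.17 (limma adjusted p = 0.0448).

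In immortalized cells Cpt1c rose in the Mlx knockout by more than any other gene of the set in any knockout, with all libraries in the fit. MlxKO libraries held 68.0, 80.2 and 74.7 CPM against 37.7, 46.8 and 28.4 in WT, 36.8, 43.2 and 47.0 in MycKO, and 64.1, 47.9 and 49.98 in DKO. MlxKO lay above every library of the other genotypes, by 0.99 ± 0.17 over WT (limma adjusted p = 0.00151), and by 0.80 ± 0.15 without WT library 3 (limma adjusted p = 0.000835). After the GC and length correction the rise was 0.58. The DKO value was 0.52 ± 0.17 (limma adjusted p = 0.054). The interaction of -0.65 ± 0.25 (limma adjusted p = 0.0469) was -0.46 without WT library 3 and no longer passed (limma adjusted p = 0.0636). Corrected for GC and length it came to -0.11 (limma adjusted p = 0.612), and the call was lost in 9 of 12 fits that left out a library, with no filter on low values and in edgeR. The 10 neuronal markers, among which Rbfox3 was at 0 in all libraries of both tables, summed to 85.9 to 89.5 CPM in MlxKO and to 101 to 206 CPM in WT. Of the 4 that were tested, 2 were higher and 1 lower in MlxKO, with a median log2 difference of 0.44. Of all genes 19.1% were higher and 19.9% lower. Without WT library 3 the marker counts were 2 and 2. The part of neurons was not tested.

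**Figure D2:**
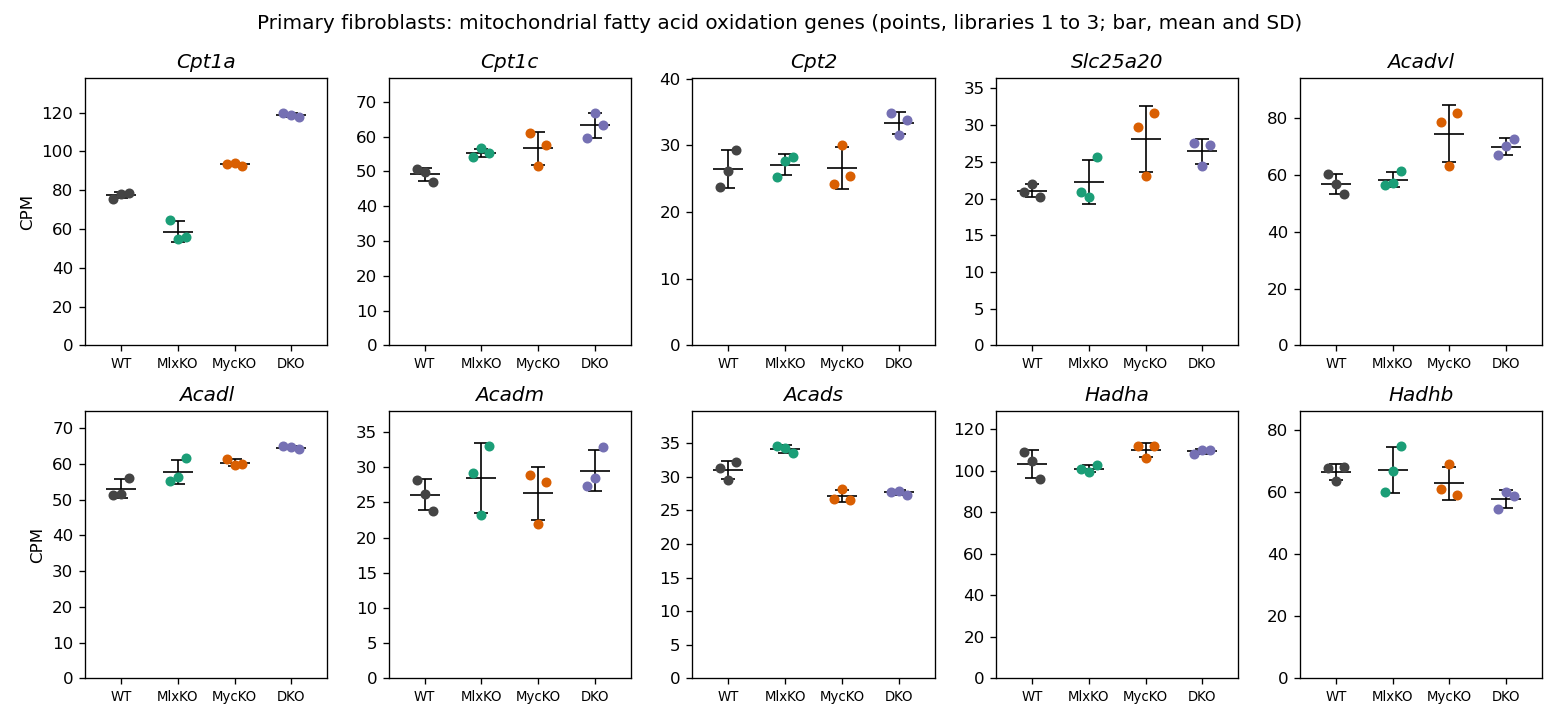
CPM of each of the 10 genes in primary MEFs, by genotype, with each library as a point and the mean and SD as bars, and each panel on its own axis from 0. The 4 groups of Cpt1a are separate, with DKO at 118 to 119.7 CPM and MlxKO at 54.7 to 64.8.

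Within a library the ratio of Cpt1c to Cpt1a does not depend on scaling, and it was chosen after the values were seen. It was 0.952 ± 0.103 (SD, n = 3) in primary MlxKO against 0.635 ± 0.0356 in WT, and 0.820 ± 0.107 in immortalized MlxKO against 0.449 ± 0.115 in WT. MlxKO did not overlap with WT in either table, with an exact two-sided permutation p of 0.1 each, the smallest that 3 against 3 can give, and an adjusted p of 0.18 over 18 such comparisons of 3 ratios. In DKO cells, which also lack Mlx, the ratio was 0.533 ± 0.0320 in primary cells, below WT without overlap (exact permutation p = 0.1, adjusted 0.18), and 0.521 ± 0.0868 in immortalized cells, overlapping with WT (exact permutation p = 0.4).

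Slc25a20 (chromosome 9, 108539250 to 108562760, plus strand) encodes the carnitine-acylcarnitine translocase. In primary cells its CPM was 20.9, 22.05 and 20.2 in WT, 21.0, 20.2 and 25.7 in MlxKO, 29.7, 23.0 and 31.6 in MycKO and 27.5, 24.5 and 27.2 in DKO. The MycKO and DKO libraries all exceeded WT, with MycKO library 2 the closest to it. The rise was 0.39 ± 0.11 in MycKO (limma adjusted p = 0.0114) and 0.31 ± 0.11 in DKO (limma adjusted p = 0.0314), and both calls were lost under library-total scaling. In immortalized cells the libraries held 19.8, 21.97 and 20.1 CPM in WT, 29.1, 31.0 and 26.3 in MlxKO, 35.5, 23.4 and 23.1 in MycKO and 22.1, 22.7 and 27.2 in DKO. Every knockout library lay above WT, and only MlxKO passed, at 0.46 ± 0.16 (limma adjusted p = 0.0399, and 0.0483 without WT library 3). This call was lost without any 1 of the MlxKO libraries. Transcripts of Slc25a20 share 3.97% of their 50-base stretches with other genes.

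Cpt2 (chromosome 4, 107751473 to 107780812, minus strand) encodes the matrix-side transferase, and it moved in opposite directions in the tables. Primary CPM was 23.7, 26.1 and 29.3 in WT, 25.3, 27.6 and 28.3 in MlxKO, 24.2, 30.1 and 25.4 in MycKO and 34.8, 31.6 and 33.8 in DKO. Only DKO stood above the rest, by 0.33 ± 0.097 over WT (limma adjusted p = 0.00904) and by 0.32 over MycKO (limma adjusted p = 0.0238). The first of these calls was lost without WT library 1, at 0.26, and the second without MycKO library 1 or 3 or DKO library 1 or 3. Immortalized CPM was 33.3, 31.0 and 32.8 in WT, 22.6, 23.6 and 24.4 in MlxKO, 17.1, 18.8 and 19.8 in MycKO and 19.1, 23.9 and 25.6 in DKO. WT was above every knockout library. The fall was 0.77 ± 0.12 in MycKO (limma adjusted p = 0.000391), 0.44 ± 0.12 in MlxKO (limma adjusted p = 0.0155) and 0.49 ± 0.12 in DKO (limma adjusted p = 0.0183). WT library 3 was in the range of the other WT libraries here, and without it the falls were 0.76, 0.43 and 0.48. The interaction was 0.72 ± 0.18 (limma adjusted p = 0.00546), and the DKO value lay above the sum of the single-knockout values. The MlxKO call was lost under library-total scaling, at -0.28, a scaling under which the median of all genes was 0.16 in that comparison, against 0.0073 before. It was also lost without WT library 1 or MlxKO library 2. The DKO call was lost with only the groups compared and without WT library 1 or DKO library 1.

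**Figure D3:**
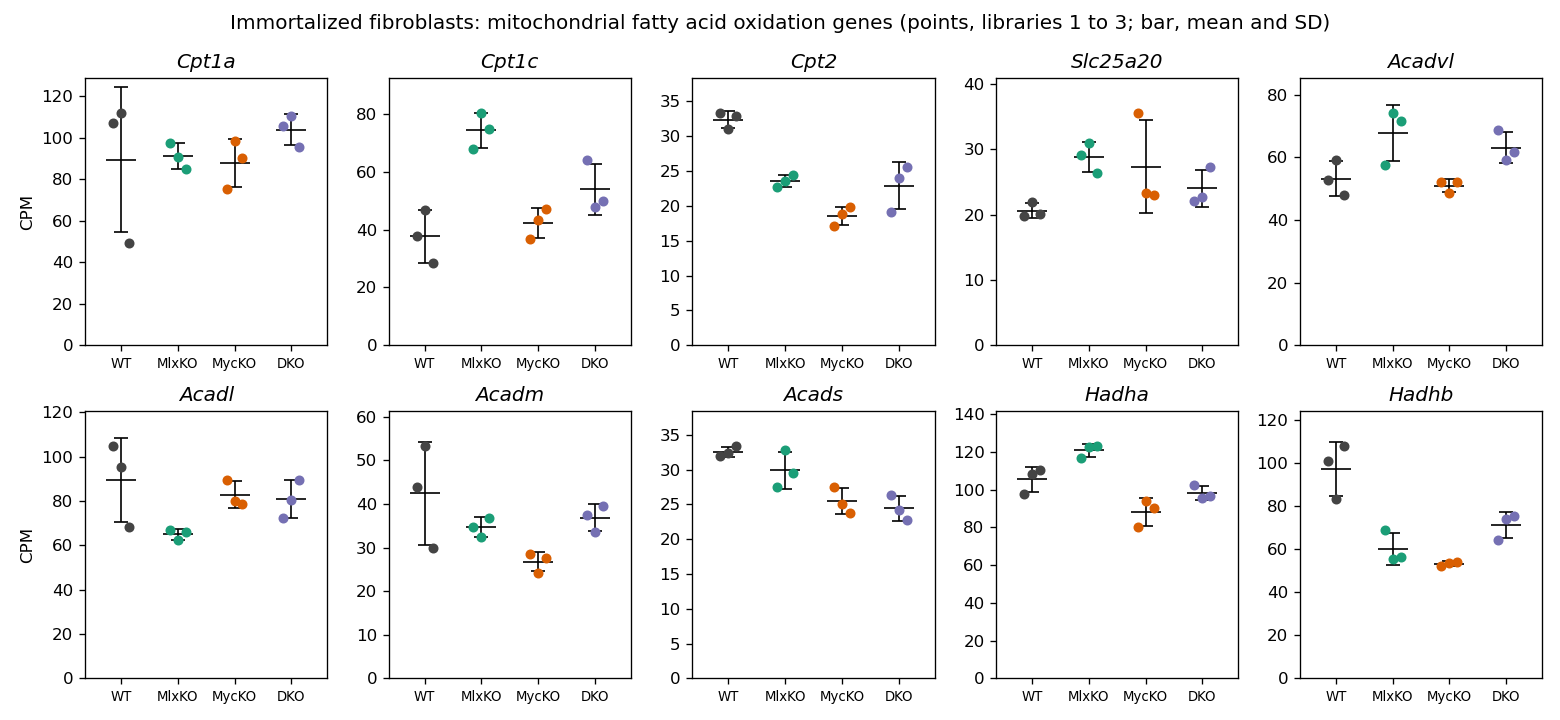
CPM of each of the 10 genes in immortalized MEFs, by genotype, with each library as a point and the mean and SD as bars, and each panel on its own axis from 0. WT library 3, the point to the right in each WT group, is the lowest WT point for Cpt1a at 49.3 CPM, and all knockout points of Cpt2 and Hadhb lie below the WT points.

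The acyl-CoA dehydrogenases were read from long to short chains. Acadvl (chromosome 11, 69900853 to 69906270, minus strand) acts on very long chains at the inner membrane. Its primary CPM was 60.3, 56.9 and 53.4 in WT, 56.5, 57.1 and 61.5 in MlxKO, 78.7, 63.1 and 81.7 in MycKO and 67.0, 70.1 and 72.7 in DKO. MycKO and DKO did not overlap with WT, and rose by 0.38 ± 0.087 (limma adjusted p = 0.00235) and 0.29 ± 0.087 (limma adjusted p = 0.01), the second lost under library-total scaling. In immortalized cells MlxKO was at 57.6, 74.1 and 71.6 CPM against 52.8, 59.0 and 47.9 in WT, with some overlap, and the rise of 0.34 ± 0.12 (limma adjusted p = 0.0424) was 0.27 and no longer passed without WT library 3. That call was lost in 8 of the 12 fits that left out a library, with no filter on low values, with only the groups compared, and after the GC and length correction, at 0.10 (limma adjusted p = 0.4). Antisense exons of Dvl2 cover 38.2% of the exonic bases of Acadvl, and the strand setting of the counting is not given in the sources used here, so its reads are uncertain.

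Acadl (chromosome 1, 66868267 to 66902633, minus strand), the long-chain enzyme, was steady within groups in primary cells. It was at 51.4, 51.6 and 56.1 CPM in WT, 55.1, 56.4 and 61.6 in MlxKO, 61.5, 59.6 and 59.9 in MycKO and 64.9, 64.7 and 64.1 in DKO. The DKO libraries were the highest and the WT libraries overlapped only with MlxKO, and the rises were 0.28 ± 0.065 in DKO (limma adjusted p = 0.0019) and 0.18 ± 0.065 in MycKO (limma adjusted p = 0.0323). The MycKO call was lost in 4 of 12 fits that left out a library, with only the groups compared, and under library-total scaling, at 0.08. In immortalized cells Acadl was at 105, 95.4 and 68.0 CPM in WT and at 66.9, 62.3 and 66.0 in MlxKO, with MycKO at 78.8 to 89.7 and DKO at 72.3 to 89.6. MlxKO was the lowest group, by 0.43 ± 0.15 below WT (limma adjusted p = 0.0348) and by 0.61 ± 0.11 without WT library 3 (limma adjusted p = 0.000697). With all WT libraries this call was lost without any 1 of the MlxKO libraries or without WT library 1 or 2. It was also lost after the GC and length correction, at -0.23, under library-total scaling, at -0.26, with no filter on low values and with only the groups compared.

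Acadm (chromosome 3, 153627989 to 153650317, minus strand), the medium-chain enzyme, did not pass in any primary comparison, except in DKO after the GC and length correction, at 0.32 (limma adjusted p = 0.0301) against 0.17 without it. Primary libraries of the 4 genotypes ranged from 21.9 to 33.0 CPM and overlapped, with a 95% interval of -0.27 to 0.27 for MycKO against WT. In immortalized cells it was at 44.0, 53.3 and 30.0 CPM in WT, 34.7, 32.3 and 36.9 in MlxKO, 28.5, 24.2 and 27.6 in MycKO and 37.5, 33.5 and 39.7 in DKO. MycKO libraries were the lowest, and WT library 3 lay nearer to them than to the other WT libraries. The fall in MycKO was 0.61 ± 0.17 (limma adjusted p = 0.0125). Without WT library 3 the falls were 0.83 in MycKO (limma adjusted p = 9.76e-05), 0.47 in MlxKO (limma adjusted p = 0.00814) and 0.39 in DKO (limma adjusted p = 0.043), and DKO was then above MycKO by 0.45 (limma adjusted p = 0.00614). The interaction was 0.70 ± 0.25 (limma adjusted p = 0.0343) with all libraries and 0.92 ± 0.17 without WT library 3. The call was lost in 9 of 12 fits that left out a library, with no filter on low values, under library-total scaling, at 0.52, and after the GC and length correction, at 0.62 (limma adjusted p = 0.0706).

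Acads (chromosome 5, 115248357 to 115257405, minus strand), the short-chain enzyme, went downward with loss of Myc in both tables. In primary cells it was at 31.3, 29.5 and 32.3 CPM in WT, 34.5, 34.3 and 33.5 in MlxKO, 26.7, 28.2 and 26.5 in MycKO and 27.8, 27.9 and 27.3 in DKO. Each MycKO and DKO library was below WT and each MlxKO library above it. The fall in MycKO was 0.19 ± 0.071 (limma adjusted p = 0.0425), a call lost in 8 of 12 fits that left out a library, and the DKO value was -0.16 (limma adjusted p = 0.0735). The DKO value passed with no filter on low values, under library-total scaling, at -0.24, and after the GC and length correction, at -0.32. In immortalized cells it was at 32.0, 32.3 and 33.4 CPM in WT, 27.5, 32.8 and 29.5 in MlxKO, 27.6, 25.1 and 23.8 in MycKO and 26.4, 24.2 and 22.8 in DKO. MycKO and DKO were below every WT library, by 0.34 ± 0.11 (limma adjusted p = 0.0239) and 0.40 ± 0.11 (limma adjusted p = 0.0272). Both calls were lost with only the groups compared and without WT library 1. The MycKO call was also lost without MycKO library 2 or 3, and the DKO call without DKO library 2 or 3. After the GC and length correction MycKO was at -0.85, MlxKO at -0.67 and DKO at -0.70 in immortalized cells, and all 3 passed. The interaction there was 0.063 before that correction (limma adjusted p = 0.766) and 0.82 after it (limma adjusted p = 0.00113).

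Hadha and Hadhb encode the α and β subunits of the trifunctional protein, the first holding the hydratase and hydroxyacyl-CoA dehydrogenase activities and the second the thiolase. They lie head to head on chromosome 5, Hadha on the minus strand from 30323302 to 30360187 and Hadhb on the plus strand from 30359204 to 30389997. The annotated genes thus overlap, and their RefSeq start sites are at 30359978 and 30360251. The exon-free stretch that ends 16 bases before the Hadhb RefSeq start is shown, as chr5:30360188-30360235 (GRCm39, plus strand, 5′ to 3′). Below it are exon-free stretches upstream of the RefSeq starts of Cpt1a, chr19:3373209-3373270 on the plus strand, and of Cpt2, chr4:107780813-107781036 on the minus strand. The Cpt1a stretch lies within the annotated gene, which begins at 3371853, ahead of its RefSeq start at 3373301. Cpt1a had its interaction called in primary cells, and Cpt2 in DKO cells moved in opposite directions in the tables. Capitals mark the GC box GGGCGG on either strand.
Hadhb: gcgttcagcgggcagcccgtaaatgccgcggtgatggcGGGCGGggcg
Cpt1a: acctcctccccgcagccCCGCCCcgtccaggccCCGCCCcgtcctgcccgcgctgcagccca
Cpt2: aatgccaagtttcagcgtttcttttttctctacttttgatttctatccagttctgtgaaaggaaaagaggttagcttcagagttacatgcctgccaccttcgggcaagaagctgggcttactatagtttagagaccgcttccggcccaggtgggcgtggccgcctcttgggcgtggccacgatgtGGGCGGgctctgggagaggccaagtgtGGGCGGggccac

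In RefSeq promoter windows of 250 bases before to 50 after the start (GRCm38.p6, each found once on its chromosome of GRCm39), all 10 genes matched. None of the 10 windows holds the E-box CACGTG, which 7.15% of 32851 windows hold on either strand. The pair of E-boxes 5 bases apart is in none of the 10 and in 0 of the 32851 windows, so its absence here says nothing about the 10. The direct repeat AGGTCANAGGTCA, a nuclear receptor element, is in none of the 10 and in 0.0396% of all windows. The single core AGGTCA occurs in those of Cpt1a, Cpt1c, Acadvl and Acadm, and in 16.3% of all. The GC box occurs in 8 of the 10, all but Acadvl and Acadm, and in 35.7% of all windows. The windows of Cpt1c and Acadvl held 47.3% and 50.7% GC and the others 57.3% to 70.3%, where the median of all windows was 52.7%. The part of GC content in these matches was not tested. The windows of Hadha and Hadhb overlap, so their matches are partly the same bases. A match is a description of letters, and its absence says only that these letters are not in this window.

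In primary cells neither subunit passed the test in any knockout with all libraries. Hadha was at 109, 105 and 96.1 CPM in primary WT, 101, 99.5 and 103 in MlxKO, 112, 106 and 112 in MycKO and 108, 110.1 and 109.9 in DKO. All groups overlapped with WT, and the 95% interval of the MycKO difference was -0.04 to 0.22. Hadhb was at 68.0, 63.5 and 68.2 CPM in WT, 60.1, 66.7 and 74.8 in MlxKO, 60.9, 68.9 and 59.0 in MycKO and 54.5, 60.2 and 58.6 in DKO. DKO lay below WT without overlap, by a value of -0.20 ± 0.083 that missed the threshold (limma adjusted p = 0.0549). That value was -0.28 and passed under library-total scaling, and was -0.04 after the GC and length correction.

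Immortalized Hadha was at 97.9, 108 and 110.3 CPM in WT, 117, 122 and 123 in MlxKO, 79.9, 94.0 and 90.4 in MycKO and 103, 95.8 and 96.7 in DKO. MlxKO was above every WT library by a value of 0.20 (limma adjusted p = 0.116), and MycKO was below, by 0.26 ± 0.094 (limma adjusted p = 0.0399), a call lost in 8 of 12 fits that left out a library, WT library 3 among them, in edgeR and with only the groups compared. Hadhb was at 101, 83.0 and 108 CPM in WT, 68.7, 55.3 and 56.4 in MlxKO, 52.0, 53.5 and 54.1 in MycKO and 64.4, 73.9 and 75.3 in DKO. All knockout libraries were below all WT libraries. Hadhb fell by 0.85 ± 0.12 in MycKO (limma adjusted p = 0.000186), 0.68 ± 0.12 in MlxKO (limma adjusted p = 0.00172) and 0.44 ± 0.12 in DKO (limma adjusted p = 0.0286). Without WT library 3 the DKO value was -0.36 (limma adjusted p = 0.0543), and the other falls were 0.77 and 0.60. The interaction of 1.09 ± 0.17 (limma adjusted p = 0.000413) was the largest of the 10 genes. After the GC and length correction it was 0.74, below 1.03 for Cpt2 and 0.82 for Acads. DKO was above MycKO by 0.41 (limma adjusted p = 0.0251). This last call was lost without any 1 of the MycKO libraries or without DKO library 2 or 3.

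**Figure D4:**
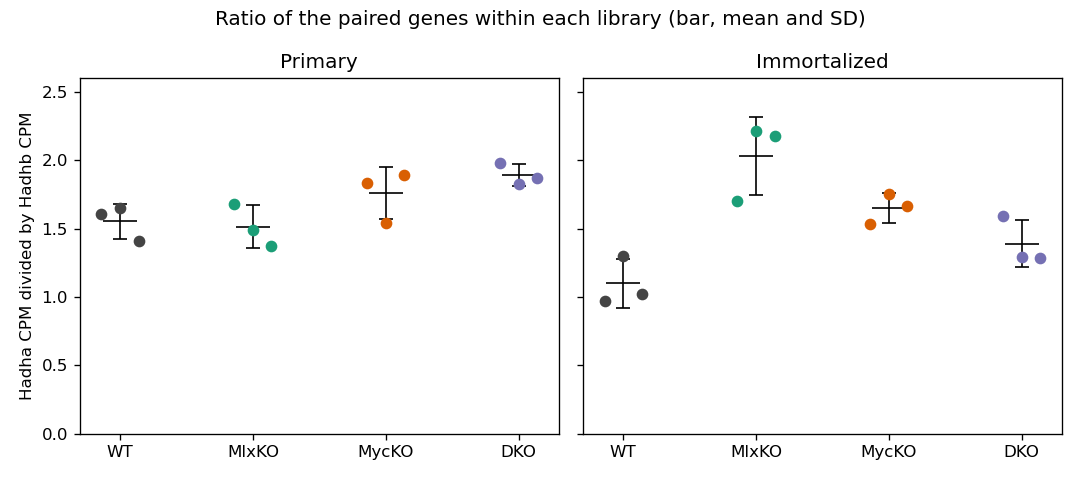
Hadha CPM divided by Hadhb CPM within each library, in primary (left) and immortalized (right) MEFs, with the mean and SD as bars. Immortalized MlxKO and MycKO libraries lie at 1.54 to 2.21, above the WT libraries at 0.972 to 1.30.

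The ratio of Hadha to Hadhb within a library, chosen after the values were seen, was 1.61, 1.65 and 1.41 in primary WT and 0.972, 1.30 and 1.02 in immortalized WT. It was 1.70, 2.21 and 2.18 in immortalized MlxKO, 1.54, 1.76 and 1.67 in MycKO and 1.59, 1.30 and 1.29 in DKO. MlxKO and MycKO lay above WT without overlap, with an exact two-sided permutation p of 0.1 each, the smallest possible here, and 0.18 adjusted over the 18 comparisons. DKO overlapped with WT (exact permutation p = 0.3). In primary cells only DKO, at 1.98, 1.83 and 1.87, lay above WT (exact permutation p = 0.1). Reads of this pair are uncertain, because antisense exons of Garem2 and Hadhb cover 31% of the exonic bases of Hadha, and 6.8% of the 50-base stretches of Hadhb are shared with the pseudogene Hadhb-ps.

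Genes around this set were grouped in lists chosen with earlier results of these data known. Of all genes tested, 20.4% were higher and 21.9% lower in primary MycKO, 3.75% and 5.14% in MlxKO, and 24% and 25.5% in DKO. In immortalized cells these shares were 24.4% and 23.5% in MycKO, 19.1% and 19.9% in MlxKO, and 10.4% and 8.51% in DKO. Without WT library 3 they were 27.3% and 26.7%, 23.1% and 23.8%, and 12% and 10.1%. The counts of each list are to be read against these shares, and many lie near them. The other steps of the mitochondrial matrix, 12 genes for the hydratase, dehydrogenase, thiolase and accessory enzymes, had more genes lower than higher in primary MycKO and DKO cells. There 2 were higher and 5 lower in MycKO, 2 and 6 in DKO, and 2 and 0 in MlxKO, with median log2 differences of -0.16, -0.21 and 0.13. The 5 lower in MycKO became 3 without any 1 of the WT libraries or without MycKO library 1. In immortalized MycKO cells none was higher and 7 were lower, or 9 without WT library 3, with a median of -0.50. Immortalized MlxKO had 0 higher and 3 lower, and DKO none in either direction, counts that were 1 and 5 in MlxKO and 0 and 2 in DKO without WT library 3. Acadsb, for short branched chains, rose to 83.7 ± 2.97 CPM in primary DKO from 55.5 ± 0.807 in WT, and Decr1, needed for unsaturated chains, rose to 31.9 ± 0.752 in primary MycKO from 24.7 ± 2.54. Acot2, an acyl-CoA thioesterase, fell to 7.68 ± 1.28 CPM in immortalized MycKO from 32.0 ± 17.0, by 1.76 on the log2 scale (limma adjusted p = 0.00138) and by 2.30 without WT library 3. Echs1, the short-chain hydratase, fell there to 30.8 ± 4.54 from 58.3 ± 17.3 CPM.

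Upstream of the mitochondrion, 10 genes of fatty acid activation and uptake were tested. In primary MycKO 1 was higher and 5 were lower, in DKO 1 and 6, and in MlxKO 0 and 1, with medians of -0.33, -0.47 and -0.09. In immortalized cells 3 were higher and 3 lower in MycKO, 2 and 2 in MlxKO, and 1 and 3 in DKO, and without WT library 3 these counts were 4 and 3, 3 and 3, and 1 and 4. Cd36, a fatty acid receptor, fell to 0.519 ± 0.138 CPM in primary MycKO from 5.70 ± 1.67 (limma adjusted p = 6.71e-06), in the cells where macrophage markers fell from 173 to 340 CPM to 26.4 to 36.6. The part of macrophages in this fall was not tested. Fabp4, an adipocyte and macrophage binding protein, fell to 2.33 ± 0.433 CPM in immortalized MycKO from 13.3 ± 6.34. Fabp3, the heart and muscle form, rose there to 6.72 ± 2.90 from 1.74 ± 0.896, and Acsl6, an acyl-CoA synthetase, to 2.59 ± 0.654 from 1.24 ± 0.0310. The 10 muscle markers summed to 191 to 232 CPM in the same cells, and only 1 of them passed the filter on low values. The part of muscle cells was not tested.

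Carnitine handling held 6 genes tested in primary and 5 in immortalized cells. Primary MycKO had 2 higher and 1 lower, DKO 3 and 1, and MlxKO none. Immortalized MycKO had 2 and 2, MlxKO 0 and 2, and DKO 1 and 0, or 1 and 2 in DKO without WT library 3. Crat, carnitine acetyltransferase, rose to 74.9 ± 5.45 CPM in immortalized MycKO from 47.2 ± 3.07, and Slc25a29, a mitochondrial carrier, rose to 2.12 ± 0.343 from 0.894 ± 0.527. Crot, the peroxisomal octanoyltransferase, fell there to 29.3 ± 5.14 from 52.6 ± 7.56 CPM. Aldh9a1, an enzyme of carnitine synthesis, fell to 17.2 ± 0.892 CPM in primary MycKO from 26.7 ± 1.69.

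Electron transfer from the dehydrogenases, 5 genes, had 1 lower in primary DKO and none called in the other primary knockouts. Immortalized MycKO had 2 higher and 3 lower, MlxKO 0 and 2, and DKO none, and without WT library 3 MycKO had 0 higher and 3 lower. Etfa, a subunit of the electron acceptor of all these dehydrogenases, fell to 85.2 ± 11.6 CPM in immortalized MycKO from 121 ± 1.17, and Slc25a32, a carrier linked to the flavin cofactor, fell to 25.9 ± 3.21 in MlxKO from 39.7 ± 8.40. Flad1, which makes that cofactor, was at 12.5 ± 0.988 in MycKO against 8.89 ± 1.16, a call lost without WT library 3.

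Branched-chain and related dehydrogenases, 6 genes, were 2 higher in primary MycKO, 1 in MlxKO and 3 in DKO, with none lower, and 1 higher in immortalized MycKO and 1 in MlxKO. Without WT library 3 the MycKO count became 0 higher and 2 lower. Acad12 rose to 5.40 ± 0.294 CPM in primary DKO from 3.20 ± 0.643. Gcdh, which acts in lysine breakdown, rose to 17.3 ± 1.33 CPM in immortalized MlxKO from 11.2 ± 2.27.

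Among 13 peroxisomal β-oxidation genes, primary MycKO had 4 higher and 2 lower, DKO 5 and 1, and MlxKO none. Immortalized MycKO had 1 higher and 4 lower, MlxKO 0 and 2, and DKO 1 and 1, and without WT library 3 MlxKO had 2 and 3. Amacr, a racemase for branched acyl-CoA, rose to 48.5 ± 7.56 CPM in immortalized MycKO from 12.5 ± 7.22, by 1.98 ± 0.27 on the log2 scale (limma adjusted p = 0.000104). Abcd2, a peroxisomal importer, fell to 0.656 ± 0.288 in immortalized MycKO from 2.25 ± 1.36. Pecr, a reductase, fell to 1.61 ± 0.518 in immortalized DKO from 3.35 ± 1.13 CPM.

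Of malonyl-CoA metabolism and transcriptional control, 15 genes were tested in primary cells, with 2 higher and 1 lower in MycKO, 1 and 0 in MlxKO and 4 and 1 in DKO. In immortalized cells 17 were tested, with 2 and 6 in MycKO, 1 and 3 in MlxKO and 1 and 3 in DKO, and without WT library 3 MlxKO had 1 and 5 and DKO 0 and 2. Pparg, the adipogenic nuclear receptor, fell to 3.70 ± 0.954 CPM in immortalized MlxKO from 26.7 ± 9.83, by 2.51 on the log2 scale (limma adjusted p = 6e-05). Prkaa2, a catalytic subunit of AMP-activated kinase, fell there to 4.15 ± 0.279 from 14.1 ± 4.53. Esrra, an orphan receptor active on oxidative genes, rose to 23.2 ± 6.78 CPM in immortalized MycKO from 10.9 ± 1.73, and its coactivator Ppargc1b rose to 1.48 ± 0.2398 from 0.190 ± 0.175, near the floor of 3 reads in WT.

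Genes that respond to PPAR outside β-oxidation were mostly low, with 7 of 14 tested in primary and 6 in immortalized cells. Primary MycKO had 1 higher and 1 lower, MlxKO 0 and 3, and DKO 2 and 2. Immortalized MycKO had 1 and 2, MlxKO 1 and 1, and DKO 1 and 0. Without WT library 3 MycKO had 1 and 3, MlxKO 0 and 2, and DKO 0 and 2, so the DKO count turned downward. Plin2, which coats lipid droplets, rose to 152 ± 5.57 CPM in immortalized MycKO from 76.8 ± 13.6, while Angptl4, a lipase inhibitor, fell to 6.32 ± 0.967 from 21.2 ± 7.70. Vnn1, a pantetheinase, was at 7.04 ± 0.994 in immortalized DKO against 2.97 ± 1.98, a call lost without WT library 3. Ucp2, a mitochondrial carrier, fell to 9.87 ± 0.793 in primary DKO from 24.6 ± 3.85 CPM.

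Lipid storage and lipolysis, 12 genes, had 2 higher in primary MycKO, 1 in MlxKO and 5 in DKO, with none lower. In immortalized cells 2 were higher and 2 lower in MycKO, 1 and 4 in MlxKO and 1 and 2 in DKO, and without WT library 3 MycKO had 3 and 5 and DKO 0 and 3. Mgll, which releases the last fatty acid of a triglyceride, went to 53.1 ± 3.27 CPM in immortalized MycKO and to 1.17 ± 0.495 in MlxKO, from 5.24 ± 2.84 in WT, with differences of 3.21 (limma adjusted p = 2.94e-06) and -1.46 (limma adjusted p = 0.00197). Lpl, lipoprotein lipase, rose to 16.3 ± 1.66 in MycKO from 2.66 ± 0.462, and Dgat2, the last enzyme of triglyceride synthesis, fell to 2.28 ± 0.509 from 6.98 ± 0.984.

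Ketone body and acetyl-CoA use, 5 genes tested, had 3 genes lower than WT in primary MycKO cells, 2 lower in DKO cells and, in MlxKO cells, 3 higher. Immortalized MycKO had 3 higher and 2 lower, MlxKO 1 higher, and DKO none, and without WT library 3 MycKO had 2 and 2, MlxKO 1 and 2, and DKO 0 and 1. Acss2, which activates acetate, rose to 13.3 ± 0.746 CPM in primary MlxKO from 7.57 ± 0.270 and fell to 6.50 ± 0.618 in immortalized MycKO from 15.4 ± 4.65. Bdh1, hydroxybutyrate dehydrogenase, rose to 2.07 ± 0.193 in immortalized MycKO from 0.901 ± 0.327, and Oxct1, which activates acetoacetate, fell to 239 ± 12.98 from 334 ± 45.7 CPM.

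**Figure D5:**
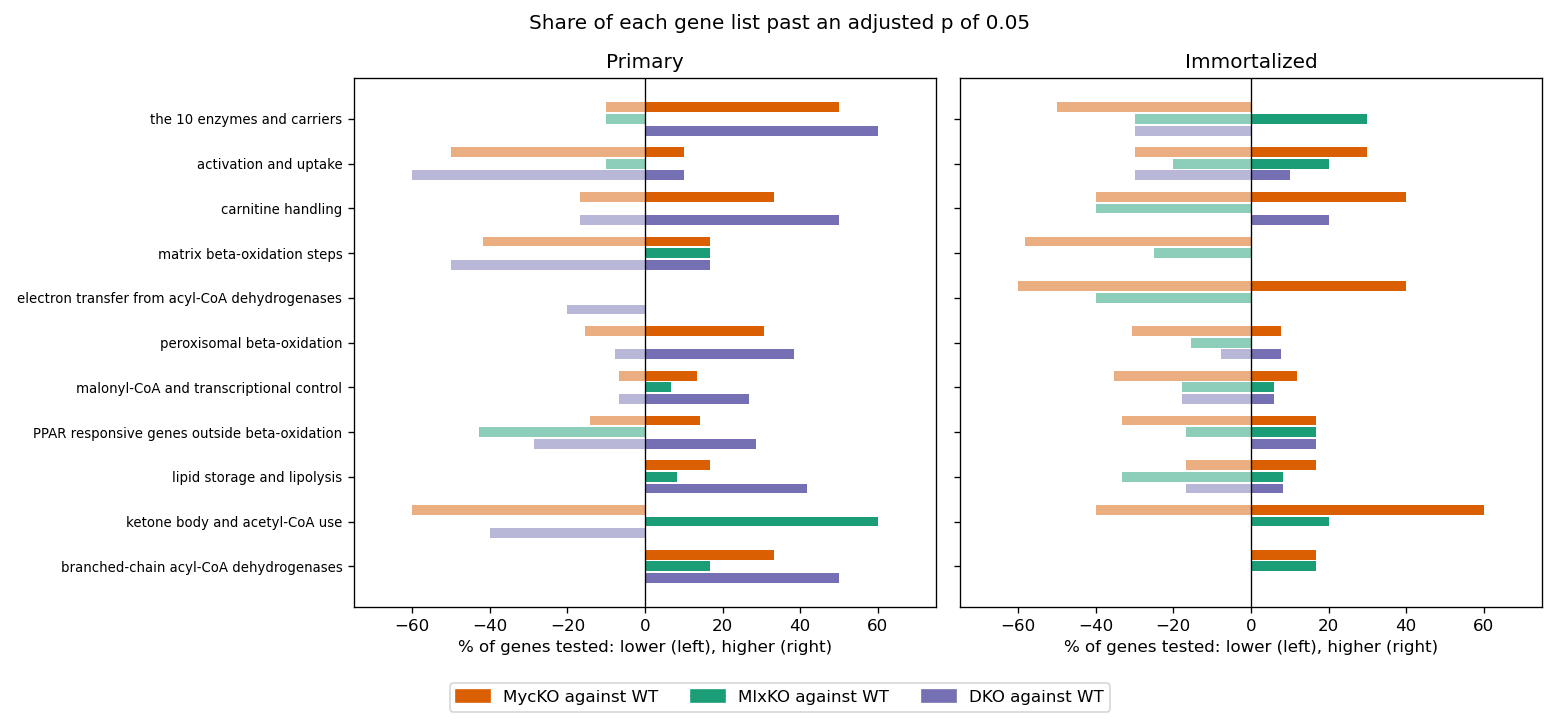
Share of each gene list with an adjusted p under 0.05 in each knockout against WT, higher to the right and lower to the left, in primary (left) and immortalized (right) MEFs, in % of the genes tested. In primary MycKO the 10 enzymes and carriers extend mainly to the right (5 of 10), and the other matrix steps mainly to the left (5 of 12). Of all genes tested there, 20.4% were higher and 21.9% lower.

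Likeness of pattern was measured over the 8 groups, as the root mean square difference in mean log2(CPM + 1) after centring within each table, a description over group means that share libraries and depth. The genes closest to Cpt1a were Egfr, at 0.08, and Tnrc18, at 0.10, and those closest to Cpt1c were Prkd2 and Rabep2. Cpt2 was closest to Kmt2c and Kdm5a, Slc25a20 to Zfp830 and Mmaa, Acadvl to Itpkb and Dennd1a, and Acadl to Btbd7 and Lsm14a. Acadm was closest to Maged1 and Parn, Acads to Luc7l and Sin3a, Hadha to Zfp335 and Tbc1d22a, and Hadhb to Nek1 and Zcchc7. No gene of the set was among the 2 closest to another. The closest such pair was Cpt2 and Acadm, at 0.10, with Acadm at rank 52 among the genes nearest to Cpt2. Hadha and Hadhb were not each other's nearest gene of the set, which were Acadvl for Hadha, at 0.118, and Acadm for Hadhb, at 0.147. A flat pattern lay at 0.122 from Hadha and at 0.233 from Hadhb, so Acadvl was hardly nearer to Hadha than a flat pattern.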

How the data were processed

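RNA was measured in 2 tables of 12 libraries, with 3 libraries per genotype. Per the labels and methods, poly-A RNA went into directional libraries, and reads were assigned to genes of GRCm39 in CLC Genomics Workbench. CPM is the only signal used here, as deposited by the authors. Sums of CPM per library ran from 915691 to 1077213, so a scaling between libraries is in the values, and its method is not given in the sources used here. Whole reads were recovered from the steps between values (100% within 0.1 of a whole number).

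From the deposited signal, log2(CPM + 1) entered limma 3.58.1 (R 4.3.3), with 4 genotypes per fit and a mean trend in the variance prior. A gene was tested if 3 or more of the 12 libraries held 1 CPM or more, and Benjamini-Hochberg adjustment ran over all of them at 0.05. Tables were never tested against each other. The script for the fits was tested on simulated data. Alternatives were a pseudocount of 0.1, other filters on low values, median-ratio and library-total scaling, a robust prior, restriction of a fit to the groups compared, edgeR 4.0.16, DESeq2 1.42.0, a GC and length correction and leaving out each library. The genes and lists were chosen with earlier results of these data known. Named from each list were at most 2 genes with the largest rise and 2 with the largest fall over the 6 comparisons with WT, among those called with libraries that did not overlap with WT, and for pattern likeness the 2 nearest genes that are not predicted genes. A gene that this rule names is not reported here. Places and lengths are those of GENCODE vM39 on GRCm39, with lengths for 41181 genes. Promoter windows are RefSeq's.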

Additional observations from a re-analysis of the deposited data

Results flagged for a closer look

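For 6 pairs of gene and table, Mlx loss gave a different change in cells that had Myc than in cells that lacked it (interaction term, limma, adjusted p under 0.05). The interaction was 0.74 for Cpt1a in primary cells. In immortalized cells it was -0.65 for Cpt1c, 0.72 for Cpt2, -0.62 for Slc25a20, 0.70 for Acadm and 1.09 for Hadhb, among 47.4% of all genes that passed there. When each library was left out in turn the call was lost in 9 of 12 fits for Cpt1c, 7 for Slc25a20 and 9 for Acadm, and in none for Cpt2 and Hadhb. Without immortalized WT library 3, Cpt1c no longer passed, at -0.46, while Cpt1a at 0.51 and Acadl at 0.57 did. Of all genes 56.7% passed in that fit. After the GC and length correction Cpt1c and Acadm no longer passed in immortalized cells and Acads did, at 0.82, where 5236 of 12863 genes passed. Cpt2 in DKO cells moved in opposite directions, with every primary DKO library above and every immortalized DKO library below WT. In each table the DKO call was lost without WT library 1. The immortalized log2 difference minus the primary one was -0.82, and this difference between the tables was not tested, since they may have been normalized separately.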

How the results depend on the processing

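No paired analysis was possible because the groups compared share no library number in the column names. Beyond fits that left out a library, 627 of 684 log2 differences of the 10 genes kept their direction and their side of the threshold, 34 were no longer called, 11 became called and 12 turned direction. The cause of these turns was not tested. Library-total scaling gave Cpt2 -0.091, Acadm -0.097 and Hadha -0.012 in primary MycKO, and Acads 0.045 in immortalized MlxKO. GC and length correction gave Hadhb 0.043 in primary MycKO and -0.019 in primary MlxKO, and in immortalized MycKO Cpt1c -0.17 and Acadl 0.067. Hadhb in primary MlxKO was -0.0066 under median-ratio scaling and -0.0016 in DESeq2, and Cpt1a in immortalized MycKO was -0.012 in edgeR and -0.019 in DESeq2.

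The count of the 10 genes called in primary MycKO, 6, became 3 under library-total scaling and 3 with only the groups compared, and that in primary MlxKO, 1, became 2 after GC and length correction. In immortalized cells, fitting only the groups compared, which leaves fewer samples to estimate the spread, took MycKO from 5 to 2, DKO from 3 to 0 and DKO against MycKO from 1 to 3. GC and length correction took the last to 4. With no filter on low values MlxKO went from 6 to 3 and the interaction from 5 to 2.

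Leaving out each library in turn gave counts of 2 to 6 for primary MycKO, 1 to 3 for DKO against MycKO and 1 to 2 for the interaction. In immortalized cells the counts were 3 to 5 for MycKO, 2 to 6 for MlxKO, 0 to 4 for DKO, 0 to 3 for DKO against MycKO and 2 to 6 for the interaction. Of 828 log2 differences in these fits 702 kept direction and side and 20 turned direction. The ranges that crossed 0 in primary cells were -0.081 to 0.085 for Cpt2 and -0.069 to 0.12 for Acadm in MycKO. In MlxKO they were -0.034 to 0.11 for Cpt2, -0.032 to 0.13 for Slc25a20, -0.0066 to 0.079 for Acadvl, -0.0016 to 0.24 for Acadm, -0.081 to 0.011 for Hadha and -0.070 to 0.086 for Hadhb. In immortalized MycKO they were -0.32 to 0.26 for Cpt1a, -0.13 to 0.018 for Acadvl and -0.27 to 0.038 for Acadl. Cpt1a ranged from -0.26 to 0.32 in immortalized MlxKO and from -0.077 to 0.51 in DKO, and Acadm from -0.39 to 0.018 in DKO.

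Of the list counts 1053 of 1200 stayed within 1.5 times, and 1214 of 1440 when a library was left out. Over all genes, the count called in primary MlxKO went from 1164 to 2127 after GC and length correction, in immortalized MlxKO from 5014 to 3209, and in immortalized DKO from 2434 to 969 with only the groups compared. Library-total scaling moved the share of higher among called genes from 48.3% to 31.4% in primary MycKO, from 42.2% to 53.8% in primary MlxKO, from 48.5% to 37.2% in primary DKO, from 49% to 69.9% in immortalized MlxKO and from 49.9% to 37.2% in its interaction, and took the median log2 difference of all genes from 0.0073 to 0.16 and from -0.013 to -0.18 in the last pair. Depth limits genes near the floor of 3 reads, 0.145 to 0.196 CPM, such as Ppargc1b in immortalized WT.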
